A study of Mus musculus with 15 samples.

Results

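Interferon regulatory factors (IRFs) are the transcription factors that switch on type I interferon genes and many genes of the antiviral and inflammatory response. The panel used in this series carries probes for 6 of them, Irf1, Irf3, Irf4, Irf5, Irf7 and Irf8, which were taken by gene symbol from the 561 genes of the deposited table. Of these, 4 (Irf1, Irf5, Irf7 and Irf8) passed the filter of a mean of at least 20 counts over all samples and were tested, together with 265 other genes, 269 in all. Irf3 and Irf4 did not pass and are described by their counts.

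RAW macrophages, a transformed cell line of mouse origin, were treated for 24 hours with lipopolysaccharide (LPS, 1 µg/ml) and with extracellular vesicles (EVs) from mouse plasma. The donors were female C57BL/6J mice of 6 to 8 weeks, either sham mice or mice killed 3 or 7 days after whole-body ionizing radiation (WBIR) at 2 or 9 Gy. The 5 groups were sham EVs, 2 Gy day 3 EVs, 2 Gy day 7 EVs, 9 Gy day 3 EVs and 9 Gy day 7 EVs, with 3 samples in each. All 5 groups, sham EVs included, received LPS, so no sample shows the cells at rest or without EVs. The sources differ on the number of EVs for each exposure (10000000 in the methods, 30000000 in the sample labels) and on the lysis reagent (RLT buffer or Trizol). Of the 3 samples titled 9 Gy day 3, replicates 1 and 2 are labelled with day 7, and they were kept at day 3 by their titles. The methods speak of runs in triplicate, and the sources used here do not say whether the 3 samples of a group were separate cultures, so p-values measure only the spread between these samples, which may be technical.

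In the nanoString nCounter assay, barcoded probes hybridized directly to mRNA are counted. Total counts ranged from 43176 to 87899 in the 9 Gy day 3 group and from 453178 to 837995 in the other groups. The macrophage label was checked against 9 marker genes, of which 8 were on the panel, and each of these 8 had a mean above 20 counts. Their summed normalized count was 5003 to 8100 with sham EVs, 2490 to 4029 in the 9 Gy day 3 group and 2475 to 3623 in the 9 Gy day 7 group. The summed T cell markers, of which 2 of 7 had a mean above 20 counts, were 149 to 172, 72.1 to 113 and 80.4 to 99.3 in the same groups. The summed B cell markers, of which 1 of 5 had a mean above 20 counts, were 39.7 to 55.4, 32 to 59.3 and 25.6 to 31, and no NK cell, platelet or neutrophil marker reached a mean of 20 counts. In the 9 Gy day 3 group the median raw count of the T cell and of the B cell markers was 1, the lowest value deposited. The part of these shifts in the results below was not tested. In bulk RNA, fewer cells of a type and less RNA per cell cannot be told apart.

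The members differ in how they enter the response to LPS. Irf3 is present before stimulation and is phosphorylated by Tbk1 and Ikbke after Tlr4 signals through its TRIF adaptor, and it then starts transcription of Ifnb1. Irf7 is itself induced by interferon and amplifies type I interferon. Irf5 acts below Myd88 and drives inflammatory cytokines such as Il6, Il12b and Il23a. Irf1 is induced by interferon gamma and by NF-κB, and Irf8 and Irf4 bind DNA with partner factors in myeloid and lymphoid cells, with Irf8 needed for macrophage development.

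Because Irf7 and Irf8 moved in the same direction in what follows, and Irf1 did not move with them, the promoter windows of these 3 genes are shown. Each runs from 250 bases before to 50 bases after the annotated start, in RefSeq's annotation of GRCm38.p6, and all 6 members had such a window. Capitals mark letters that match a searched motif. The motifs were the STAT site (GAS, TTCNNNGAA), the ISRE core (GAAA, any 2 bases, GAAA), the ETS-IRF composite element (GGAA, any 2 bases, GAAA) and the κB decamer, each searched on both strands. The first 3 patterns can share letters, since a GAAA run can fall in more than 1 of them. Irf1 is on the plus strand at chr11:53769764-53770063, Irf8 on the plus strand at chr8:120736108-120736407 and Irf7 on the minus strand at chr7:141266375-141266674.
Irf7: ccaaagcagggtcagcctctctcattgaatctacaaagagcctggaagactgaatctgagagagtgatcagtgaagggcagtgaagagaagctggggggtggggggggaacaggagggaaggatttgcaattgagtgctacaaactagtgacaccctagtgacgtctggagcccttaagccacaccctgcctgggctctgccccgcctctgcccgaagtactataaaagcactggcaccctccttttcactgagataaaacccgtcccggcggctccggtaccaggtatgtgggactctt
Irf8: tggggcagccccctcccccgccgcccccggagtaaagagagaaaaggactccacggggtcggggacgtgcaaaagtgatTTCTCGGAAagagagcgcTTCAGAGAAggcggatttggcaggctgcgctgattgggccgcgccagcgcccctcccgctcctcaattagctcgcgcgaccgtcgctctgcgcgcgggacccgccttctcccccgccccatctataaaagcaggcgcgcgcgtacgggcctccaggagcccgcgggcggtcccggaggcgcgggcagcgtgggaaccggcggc
Irf1: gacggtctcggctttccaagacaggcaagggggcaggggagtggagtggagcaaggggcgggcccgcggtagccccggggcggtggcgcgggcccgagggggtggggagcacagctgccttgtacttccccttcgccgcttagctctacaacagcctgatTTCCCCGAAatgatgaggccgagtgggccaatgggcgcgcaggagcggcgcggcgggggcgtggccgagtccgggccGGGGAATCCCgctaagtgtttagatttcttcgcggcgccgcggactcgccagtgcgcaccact
The Irf1 window held a GAS motif starting 90 bases before the gene start and a κB decamer starting 13 bases before it. The Irf8 window held 2 GAS motifs, starting 171 and 153 bases before the start. The Irf7 window, the windows of Irf3, Irf4 and Irf5, and a second annotated window each of Irf1 and Irf8 held none of the 4 motifs. Across all 32851 promoter windows of this length, GAS was found in 8.3%, the ISRE core in 3.44%, the ETS-IRF element in 2.72% and the κB decamer in 5.8%. In the 510 windows of the panel's own genes the shares were higher, at 12.7%, 6.08%, 3.73% and 10%. These are letter matches in a fixed window and say nothing of factor binding.

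In all comparisons with sham EVs the same 3 sham samples serve as controls, whereas the comparison of 9 Gy with 2 Gy EVs uses none of them. Counts were scaled to the panel's 14 housekeeping genes and are called normalized counts. Of 13 of these genes that were tested, 3 were themselves higher and 6 lower past the threshold in the 9 Gy day 3 group, 4 and 4 in the 9 Gy day 7 group, and 4 and 7 in 9 Gy against 2 Gy EVs. Normalized counts are not compared between genes, since probes differ in efficiency.

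Irf7, the amplifier of type I interferon, fell with 9 Gy EVs. With sham EVs its normalized counts were 4202, 3580 and 4071 in replicates 1, 2 and 3. With 9 Gy day 3 EVs they were 468, 669 and 1030, and in the 9 Gy day 7 group 600, 653 and 1057. Every 9 Gy sample was thus far below every sham sample, and replicate 3 was the highest in both 9 Gy groups. The 2 Gy samples stayed near sham EVs, at 3619, 3700 and 3731 for day 3 and at 3973, 3636 and 3457 for day 7. Its mean was 3951 ± 328 (SD, n = 3) with sham EVs and 722 ± 285 (SD, n = 3) in the 9 Gy day 3 group, a log2 fold change of -2.44 (SE 0.26) with an adjusted p of 4.6e-06 in the quasi-likelihood test of edgeR, adjusted by Benjamini-Hochberg over the 269 genes. In the 9 Gy day 7 group the mean was 769.9 ± 249.9 (SD, n = 3), a log2 fold change of -2.36 (SE 0.25) with the same adjusted p in edgeR, 4.6e-06. These are 5.43-fold and 5.13-fold reductions. Total counts in the 9 Gy day 7 group (453178 to 617963) overlapped those of the sham group (568097 to 729491), while its housekeeping means (801 to 872 counts) lay above those of the sham group (454 to 545). The part of either in the Irf7 values was not tested.

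Both 9 Gy comparisons moved much of the panel, so the members are read against that background. Against sham EVs, 52.4% of the genes tested passed the threshold with 9 Gy day 3 EVs (41.3% lower, 11.2% higher) and 61% in the 9 Gy day 7 group (49.1% lower, 11.9% higher). The groups did not overlap, with all 9 Gy samples below all sham samples, for 43.9% and 49.1% of genes. The median log2 fold change of all genes tested was -0.46 and -0.45. Irf7 and Irf8 passed in both comparisons and Irf1 and Irf5 in neither, so 2 of the 4 tested members were lower in both, where 38.7% of all genes tested were. That share is near the background. The log2 fold change of Irf7 ranked 12 of 269 from the lowest in the 9 Gy day 3 group and 15 of 269 in the 9 Gy day 7 group.

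Irf8, the macrophage and dendritic cell factor, fell less and less evenly. Its normalized counts with sham EVs were 163, 125 and 162. They were 29.6, 56.1 and 95.8 with 9 Gy day 3 EVs, which rest on only 5, 14 and 29 raw counts, and 83.1, 92.7 and 121 in the 9 Gy day 7 group. All 9 Gy samples lay below all sham samples, but the highest 9 Gy day 7 sample was close to the lowest sham sample. In the 2 Gy groups the values were 168, 140 and 137 for day 3 and 168, 116 and 126 for day 7. The log2 fold change was -1.22 (SE 0.30) with 9 Gy day 3 EVs, with an edgeR adjusted p of 0.00449, and ranked 58 of 269 from the lowest. At day 7 of 9 Gy it was -0.60 (SE 0.25), with an edgeR adjusted p of 0.0496, rank 123 of 269, and only 0.15 below the median of all genes tested. That call sat at the threshold and was lost when sham replicate 1 (-0.54, edgeR adjusted p 0.128), sham replicate 3 (-0.54, 0.125), 9 Gy day 7 replicate 1 (-0.49, 0.167) or 9 Gy day 7 replicate 2 (-0.55, 0.12) was left out. Under TMM, median or total-count scaling neither fall of Irf8 passed, and total counts gave 0.48 for day 7.

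Irf1, which responds to interferon gamma and NF-κB, varied widely between replicates of a group. With sham EVs its normalized counts were 80.4, 303 and 122. With 9 Gy day 3 EVs they were 427, 460.4 and 79.3, and in the 9 Gy day 7 group 378, 591 and 99.3. In both 9 Gy groups replicates 1 and 2 were above every sham sample and replicate 3 was within or below the sham range. The 2 Gy values were 110, 202 and 200.2 for day 3 and 123, 326 and 291 for day 7. The log2 fold change against sham EVs was 0.90 (SE 0.71, 95% interval -0.63 to 2.44) in the 9 Gy day 3 group and 1.07 (SE 0.67) in the 9 Gy day 7 group, with edgeR adjusted p of 0.295 and 0.183. Without replicate 3 of both 9 Gy groups, an alternative added after the values were seen, the log2 fold changes were 1.39 and 1.52 with edgeR adjusted p of 0.0421 and 0.0161. The day 7 value also passed when only 9 Gy day 7 replicate 3 (1.52, edgeR adjusted p 0.0449) or only sham replicate 2 (1.81, edgeR adjusted p 0.0497) was left out, and was 0.50 (edgeR adjusted p 0.588) without 9 Gy day 7 replicate 2. Over all samples left out 1 at a time the values ran from 0.50 to 1.63 for 9 Gy day 3 and from 0.50 to 1.81 for 9 Gy day 7. In the 9 Gy day 3 group only replicate 3 has a title and a label that give the same day. With the other two left out the log2 fold change of Irf1 was -1.09 in place of 0.90, that of Irf8 was -0.64 (edgeR adjusted p 0.164) and that of Irf7 was -1.94 (edgeR adjusted p 0.000756), with the lone sample assumed to vary like the other groups.

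Irf1 was highest in replicate 2 in all 5 groups. Of the 269 genes tested only Irf1 and Il1rap did so, 0.743%, a count made after the values were seen and not set against a random order of replicates. In both 9 Gy groups replicate 3 was the lowest for Irf1 and Irf5 and the highest for Irf7 and Irf8, so the sample with the smallest fall of Irf7 was also the sample with the least Irf1. What the numbers share is not stated in the sources.

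Irf5, the factor below Myd88, showed no change that passed the threshold. Its normalized counts were 287, 386 and 318 with sham EVs, 373, 360.3 and 228 in the 9 Gy day 3 group, and 385, 462 and 316 in the 9 Gy day 7 group. The groups overlapped throughout, and the 2 Gy groups (306, 367 and 393, then 286, 391 and 389) overlapped with sham EVs as well. The log2 fold change was -0.06 (SE 0.22, 95% interval -0.53 to 0.41) with 9 Gy day 3 EVs, with an edgeR adjusted p of 0.821. At day 7 of 9 Gy it was 0.23 (SE 0.21), with an edgeR adjusted p of 0.344. Set against the median of all genes tested, these values were 0.40 and 0.68 higher.

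**Figure D1:**
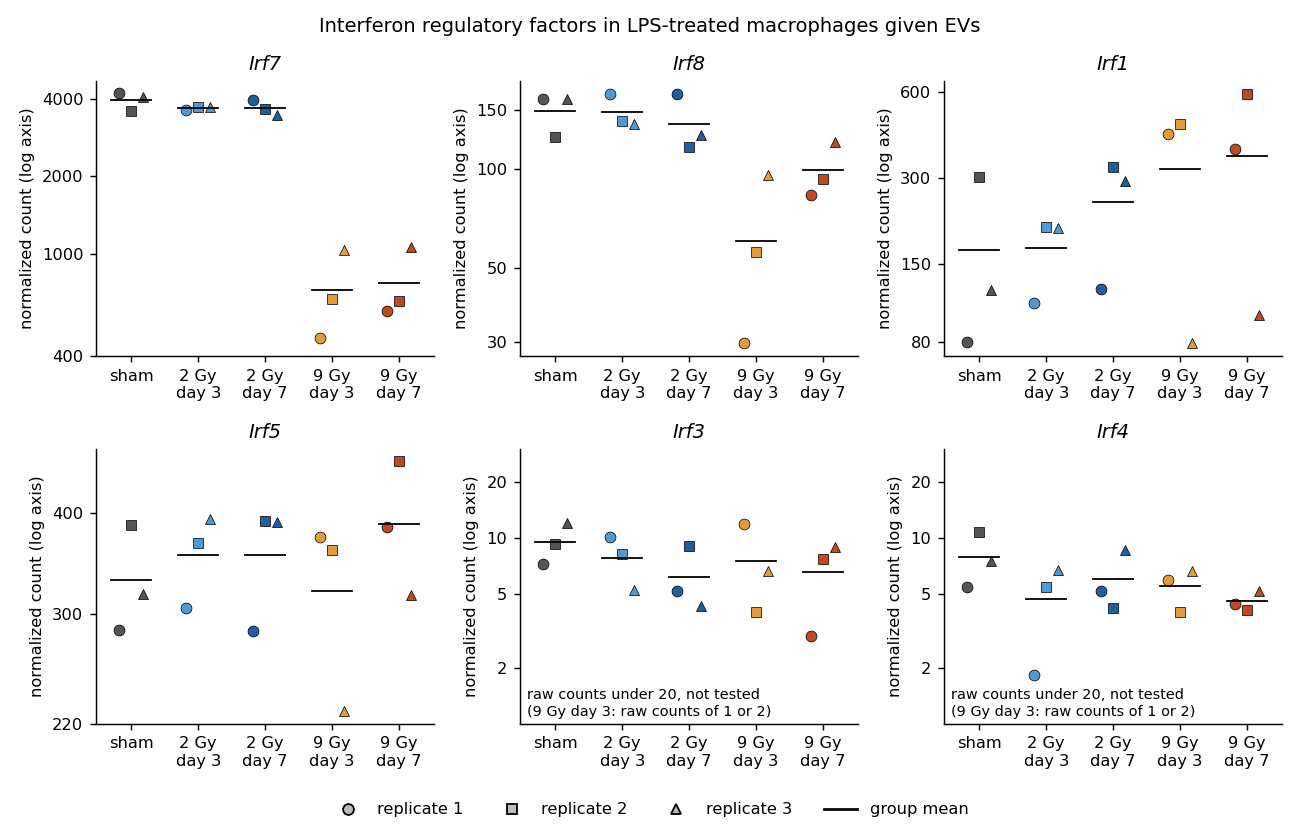
Normalized counts (log axis, housekeeping scaling) of the 6 interferon regulatory factors in each of the 15 samples, by EV group, with replicate numbers as marker shapes and the group mean as a line. The 9 Gy samples of Irf7 sit between 468 and 1057, all below the 2 Gy and sham samples, while Irf1 and Irf5 overlap between groups and Irf3 and Irf4 rest on raw counts under 20.

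Irf3 and Irf4 gave few counts. The raw counts of Irf3, the first responder to Tlr4, were 1 or 2 with 9 Gy day 3 EVs and 5 to 19 in the other groups, with a mean of 10.9 in those. Irf4, which acts in lymphocytes and in alternatively activated macrophages, gave 1 or 2 and 2 to 14 counts, with a mean of 8.33. The control probes were not analysed here, so whether these counts exceed background was not tested. In an edgeR fit without the filter neither passed the threshold in any comparison, the smallest adjusted p being 0.0705 for Irf4 in the 9 Gy day 7 group (log2 fold change -0.80, SE 0.34).

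With 2 Gy EVs none of the genes tested passed the edgeR threshold, 0% of 269 at either day, and 7 and 1 genes had an unadjusted p under 0.05. DESeq2 on the same scaling called 1 and 0, and edgeR on all 561 genes, without the filter, called 0 and 1. For the tested members the log2 fold changes at day 3 were 0.02 for Irf1, 0.10 for Irf5, -0.10 for Irf7 and -0.02 for Irf8, each with an edgeR adjusted p of 0.998. At day 7 they were 0.55, 0.10, -0.10 and -0.13, each with an edgeR adjusted p of 0.944. All 4 members overlapped between the sham and the 2 Gy samples at both days.

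The samples of the 2 doses were also compared with each other, both 9 Gy groups against both 2 Gy groups. Total counts were 43176 to 87899 in the 9 Gy day 3 group and 453178 to 837995 in the other groups. Housekeeping means were 801 to 872 counts in the 9 Gy day 7 group and 448 to 603 with 2 Gy EVs. The part of these differences in the comparison of doses was not tested. In this comparison 67.7% of the genes tested passed the threshold, 52% lower and 15.6% higher, and for 36.1% all 9 Gy samples lay below all 2 Gy samples. Irf7 was lower with 9 Gy EVs by a log2 fold change of -2.30 (SE 0.18), with an edgeR adjusted p of 9.5e-08, rank 14 of 269 from the lowest. All 6 of the 9 Gy samples were below all 6 of the 2 Gy samples, and an exact two-sided permutation test on this gene gave p = 0.00216, the smallest that 6 against 6 samples allow. This test takes the 6 samples of a dose as independent. Samples of the same number deviated together between the days, and permuting 3 such sets against 3 could not go below 0.1, which holds for each exact p of this comparison, the ratios of members included. Irf8 was lower by -0.84 (SE 0.20), with an edgeR adjusted p of 0.00181, and 5 of the 6 samples were below all 2 Gy samples (exact permutation p = 0.00433). It was lower past the threshold under 2 of the 5 scalings, lost it under the median and TMM, and turned to 0.27 under total counts. Irf1 differed by 0.71 (SE 0.49) and Irf5 by -0.02 (SE 0.15), with edgeR adjusted p of 0.208 and 0.916 (exact permutation p = 0.431 and 0.855). Under the median, TMM and total counts both were higher past the threshold, Irf1 at 1.17, 1.19 and 1.92 and Irf5 at 0.44, 0.45 and 1.15. For Irf1, leaving out replicate 3 of both 9 Gy groups gave 1.17 with an edgeR adjusted p of 0.0109.

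**Figure D2:**
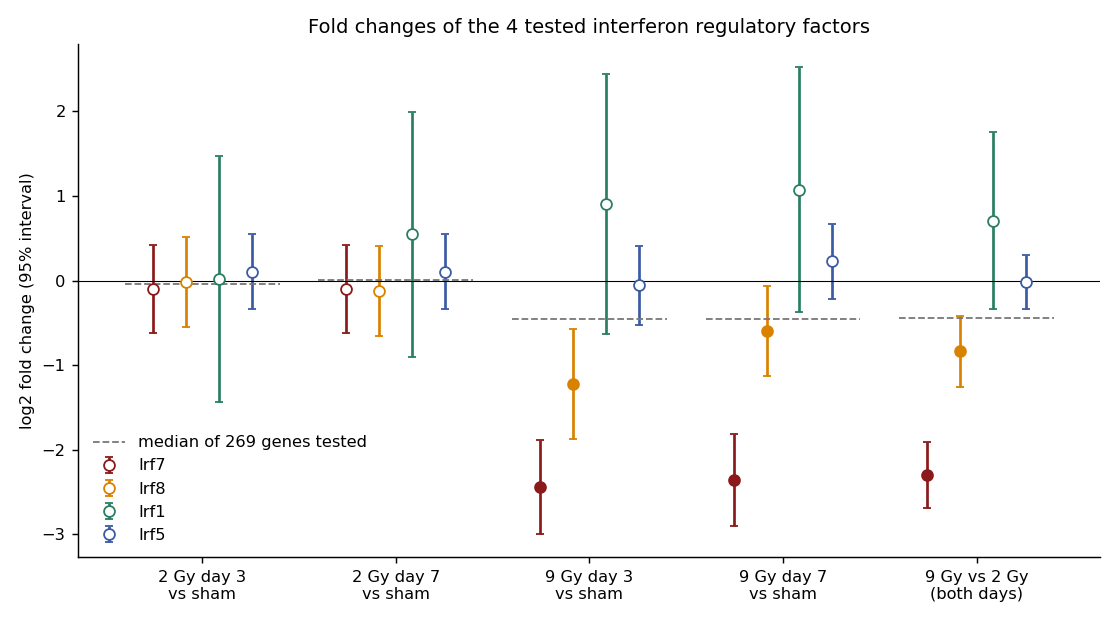
Log2 fold change with its 95% interval for Irf7, Irf8, Irf1 and Irf5 in the 4 comparisons with sham EVs and in 9 Gy against 2 Gy EVs, with filled points past the edgeR threshold and a dashed line at the median of the 269 genes tested. Irf7 lies near -2.4 with 9 Gy EVs and near -0.1 with 2 Gy EVs, and in the 3 comparisons of 9 Gy EVs Irf8 lies between Irf7 and the median of all genes.

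Between days, no gene passed the edgeR threshold at either dose (0% of 269, with 6 and 4 genes at an unadjusted p under 0.05 for 9 Gy and 2 Gy). From day 3 to day 7 of the 9 Gy EVs the log2 fold changes were 0.08 for Irf7, 0.17 for Irf1, 0.29 for Irf5 and 0.62 for Irf8, the last with an unadjusted edgeR p of 0.0588 and an adjusted p of 0.986. Between the 2 Gy days Irf7 and Irf5 differed by less than 0.01, Irf8 by -0.11 and Irf1 by 0.53. Samples of the same number deviated together between the days of a dose, and with the replicate number as a block 27 genes passed between the 2 Gy days, Irf1 among them (0.51, SE 0.10, edgeR adjusted p 0.0158), in a fit of these 2 groups alone. The block was adopted from correlations in these same values, so these calls are not independent of that choice. With the block in the fit of all groups 0 genes passed, and Irf1 was at 0.49 with an edgeR adjusted p of 0.977. With the block between the 9 Gy days 0 genes passed in either fit. The change of the day effect between doses was not past the threshold for any member, with 0.74 and an edgeR adjusted p of 0.993 for Irf8.

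These fold changes depend on what the samples are scaled to. Scaling to total counts moved the median of all genes tested from -0.46 to 0.56 in the 9 Gy day 3 group and from -0.45 to 0.65 in the 9 Gy day 7 group, and with total counts 21.4% and 17.8% of the genes past the threshold were lower, against 78.7% and 80.5% in the housekeeping fit. Irf7 was lower past the threshold under all 5 scalings in both comparisons, at -2.44 to -1.44 and -2.36 to -1.29. This held for 9.67% of all genes tested. Irf8 was lower past the threshold under 2 of 5 scalings at day 3 (-1.22 to -0.23) and 1 of 5 at day 7, where total counts turned its sign (-0.60 to 0.48). Irf5 was higher past the threshold under 1 of 5 at day 3 (-0.06 to 0.99) and 3 of 5 at day 7 (0.23 to 1.36). Irf1 was higher past the threshold under 1 of 5 at each day, at 0.90 to 2.00 and 1.07 to 2.28.

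**Figure D3:**
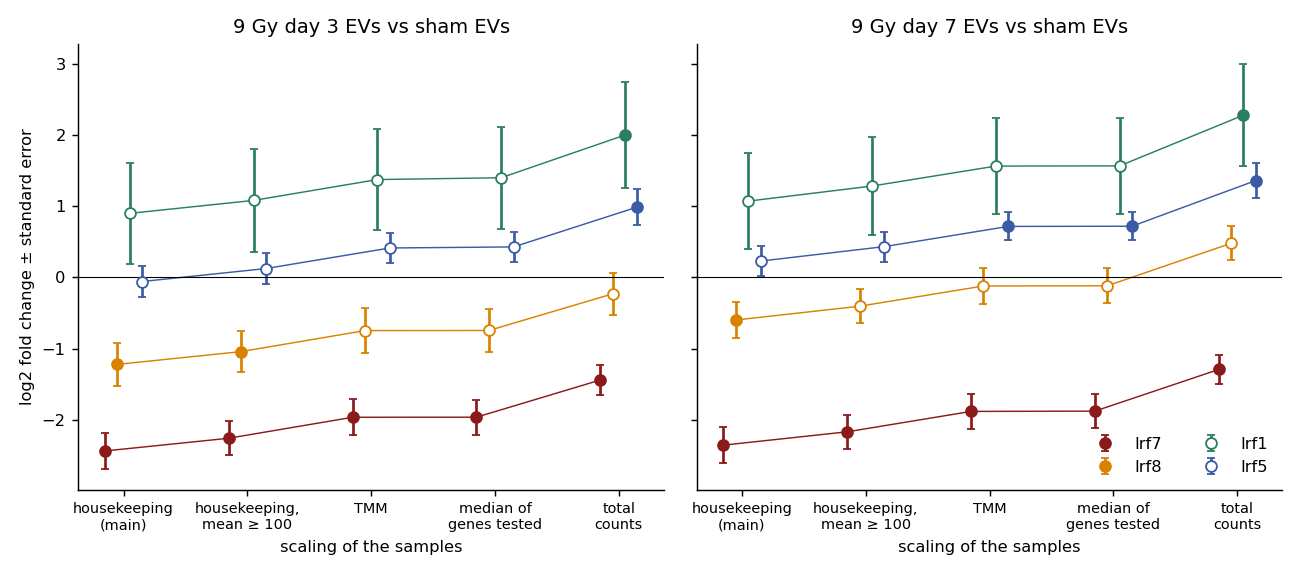
Log2 fold change ± standard error of the 4 tested factors against sham EVs under 5 scalings of the samples, with filled points past the edgeR threshold (adjusted p under 0.05). Irf7 stays below -1.2 under all 5, whereas Irf8 in the 9 Gy day 7 group runs from -0.60 to 0.48 and Irf5 becomes higher past the threshold under 3 of 5.

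Ratios of 2 members within a sample need no scaling. The log2 ratio of Irf7 to Irf8 was 4.65 to 4.84 with sham EVs, 4.43 to 4.97 with 2 Gy EVs, 3.43 to 3.98 in the 9 Gy day 3 group and 2.82 to 3.13 in the 9 Gy day 7 group. The ratio was thus lower in every 9 Gy sample than in every sham or 2 Gy sample. In the 9 Gy day 3 group it rests on 5 to 29 raw counts of Irf8, so its counting error there is large. The ratio differed by -1.41 between 9 Gy and 2 Gy EVs (exact two-sided permutation p = 0.00216, 0.00649 after Benjamini-Hochberg adjustment over the 6 ratios of members). The 2 days of 9 Gy EVs did not overlap in this ratio, with a difference of -0.73 and an exact permutation p of 0.1, the smallest that 3 against 3 samples allow. Replicates 1 and 2 of that day 3 group are labelled with day 7. The log2 ratio of Irf5 to Irf7 was -3.80 to -3.15 with 2 Gy EVs and -2.18 to -0.33 with 9 Gy EVs, a difference of 2.34 with an exact permutation p of 0.00216 (adjusted 0.00649). That of Irf1 to Irf7 differed by 2.82 (exact permutation p = 0.00866, adjusted 0.0173). The remaining 3 ratios did not pass after adjustment, Irf5 to Irf8 being nearest at a difference of 0.93 (exact permutation p = 0.0346, adjusted 0.0519). For 41.6% of all pairs of genes tested the ratios of the 9 Gy and 2 Gy samples did not overlap, so a separated ratio is common on this panel.

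**Figure D4:**
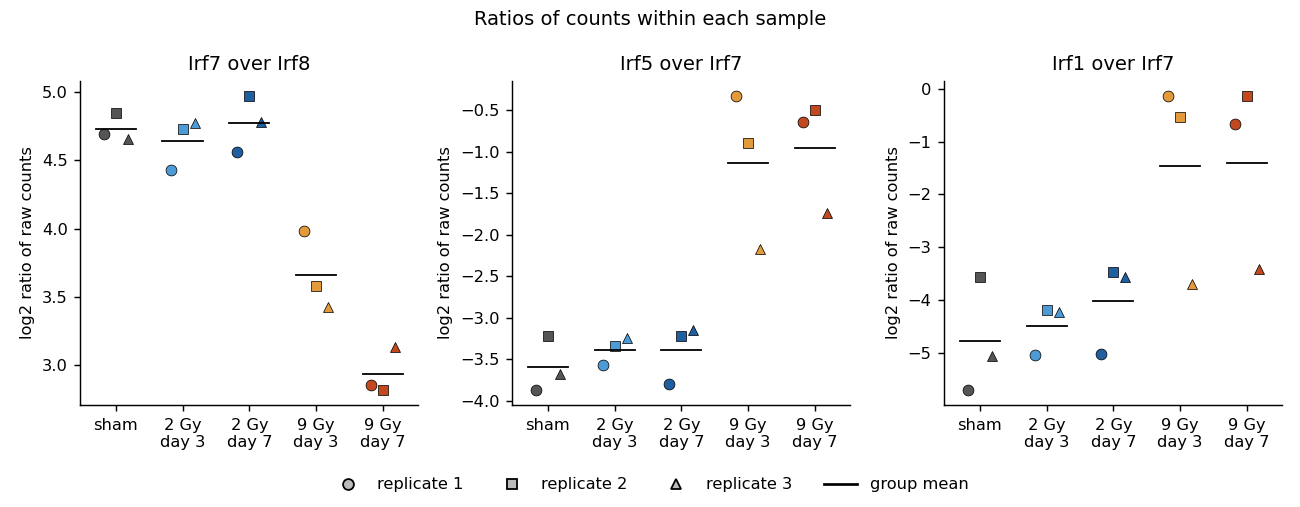
Log2 ratio of raw counts of 2 interferon regulatory factors within each sample, for Irf7 over Irf8, Irf5 over Irf7 and Irf1 over Irf7, by EV group, with replicate numbers as marker shapes and the group mean as a line. Irf7 over Irf8 is 4.43 to 4.97 with 2 Gy EVs and 2.82 to 3.98 with 9 Gy EVs, and replicate 3 of both 9 Gy groups stays nearest to the other groups in both ratios over Irf7.

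The genes whose levels followed each member most closely over the 15 samples were found by the root mean square difference of log2 normalized counts, each gene centred on its own mean. For Irf7 they were Ccl5 at 0.201, Ebi3 at 0.214 and Tnfrsf1b at 0.254, where the median over all genes was 1.03. Ccl5 and Ebi3, a chemokine and a cytokine subunit induced by LPS, changed by log2 fold changes of -2.29 and -2.17 with 9 Gy day 3 EVs. For Irf1 the nearest were Ifit2 at 0.458, Il15ra at 0.570 and Il15 at 0.579, against a median of 1.11. For Irf8 they were Zbtb7b at 0.332, Il10rb at 0.344 and the scavenger receptor Msr1 at 0.356, with a median of 0.668, so its nearest genes were less close than those of Irf7. For Irf5 they were Ptprc at 0.188, Relb at 0.188 and Myd88 at 0.192, with a median of 0.54. A gene with no change at all would be at 0.247 from Irf5, so these are little closer to it than a flat gene. These differences describe 15 samples that share 5 groups and their scaling.

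The genes that activate the factors form the next list. Of 27 listed Toll-like receptors, RNA sensors, adaptors and kinases, 21 were analysed and 17 tested. In the 9 Gy day 3 group 2 were higher and 2 lower past the edgeR threshold, and in the 9 Gy day 7 group 1 was higher and 5 lower, where 52.4% and 61% of all genes tested passed. The median log2 fold change of the list was 0.04 and -0.02 in the housekeeping fit, where that of all genes tested was -0.46 and -0.45. Ifih1, the cytosolic RNA sensor MDA5, was at 242 ± 36.8 (SD, n = 3) in the sham group and rose to 1184 ± 388 (SD, n = 3) with 9 Gy day 3 EVs, a log2 fold change of 2.28, and had 2.16 in the 9 Gy day 7 group. Ifih1 was higher under all 5 scalings. Cd14, the LPS coreceptor, fell by 1.20 and 1.34 on the log2 scale, past the threshold under 2 and 3 of the 5 scalings. Irak2, a kinase recruited by Myd88, fell by 0.42 and 0.38, which turned to a rise past the threshold under total counts. Tbk1 was at -0.11 and -0.64, of which only the day 7 value passed. Ikbke (0.35 and 0.25), Myd88 (-0.12 and 0.46), Traf6 (0.80 and 0.27) and Irak1 (0.11 and 0.19) did not pass in the housekeeping fit. Myd88 was higher past the threshold under 1 of the 5 scalings at day 3 and 4 at day 7, Irak1 under 3 and 4, Ikbke under 1 at each day and Traf6 under 0. Tbk1 was higher past the threshold under 1 of the 5 at day 3, and its fall at day 7 passed under 1. Under total counts 12 and 11 of the 17 were higher and 0 lower.

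Of the 11 tested receptors, kinases, STATs and SOCS regulators of interferon signaling, 6 were lower and 1 higher past the threshold with 9 Gy day 3 EVs, and 8 lower and 1 higher in the 9 Gy day 7 group, where 41.3% and 49.1% of all genes tested were lower. Their median log2 fold changes were -0.67 and -0.77, and those of all genes tested -0.46 and -0.45. The receptor chains Ifnar1 (-0.74 and -0.85), Ifnar2 (-1.09 and -0.93) and Ifngr2 (-1.44 and -1.61) fell in the 9 Gy day 3 and day 7 groups. Tyk2, a kinase bound to the type I interferon receptor, rose by 1.28 and 0.76, and Stat2 was at -0.53 and -0.20 without passing, though higher past the threshold under 1 of the 5 scalings at day 7. Under total counts, 3 were higher and 0 lower at day 3, and 4 higher and 1 lower at day 7. Ifngr2 fell under 4 and 5 of the 5 scalings, Ifnar2 under 4 at each day, and Ifnar1 under 2 at day 3 (-0.74 to 0.28) and 4 at day 7 (-0.85 to 0.27).

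Among 8 tested DNA-binding partners, 2 were higher and 2 lower with 9 Gy day 3 EVs, and 1 higher and 3 lower in the 9 Gy day 7 group, with medians of 0.27 and 0.19, beside the same background. Nfkb2, an NF-κB subunit, fell from 3012 ± 344 (SD, n = 3) to 611 ± 106 (SD, n = 3) and 720.2 ± 146 (SD, n = 3), log2 fold changes of -2.30 and -2.06 that were lower under all 5 scalings. Tcf4, the E-box factor E2-2, rose by 1.12 and 0.89 under all 5 scalings. Bcl6, a repressor, fell by 1.19 and 0.82, past the threshold under 2 of the 5 scalings. Batf, the AP-1 partner of Irf4 and Irf8, was at -0.33 and -0.71, of which only day 7 passed, lower under 2 of the 5 scalings and higher under 1. Ikzf1 was below the filter and Spi1, which encodes the Irf8 partner PU.1, was not analysed here. Under total counts 6 were higher and 1 lower at each day.

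Known targets of the factors moved in both directions. Of 27 tested, 17 were lower and 5 higher past the threshold with 9 Gy day 3 EVs, and 16 lower and 6 higher in the 9 Gy day 7 group. The medians were -1.05 and -0.94, where those of all genes tested were -0.46 and -0.45, with 41.3% and 49.1% lower and 11.2% and 11.9% higher. Under total counts the split was 10 lower and 9 higher at day 3 and 7 lower and 12 higher at day 7. Ifnb1, the interferon that Irf3 and Irf7 induce, was 17.9 ± 11.8 (SD, n = 3) with sham EVs, 352 ± 214 (SD, n = 3) in the 9 Gy day 3 group and 279 ± 140 (SD, n = 3) in the 9 Gy day 7 group, and rose by log2 fold changes of 4.25 and 3.95. Cxcl10, a chemokine induced by interferons, rose by 2.32 and 2.08. Both were higher under all 5 scalings, in the same samples in which Irf7 was lower. Mx1, an antiviral GTPase, was at 1.03 without passing and rose by 1.08 at day 7, and Ifit2 was at 1.03 and 0.73 without passing. These hold for the housekeeping fit, since Mx1 was higher past the threshold under 4 of the 5 scalings at day 3 and 5 at day 7, and Ifit2 under 3 at each day.

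Other interferon-induced targets were lower in the same samples as Irf7. Bst2, the tether of budding virions, fell by 1.54 and 1.43 and Psmb9, an immunoproteasome subunit, by 1.83 and 1.31. Ifi35 was at -1.19 and -1.20 and the peptide transporter Tap1 at -0.81 and -0.60, both lower past the threshold. The costimulatory receptor Cd40 fell by 1.57 and 1.37, but under only 2 of the 5 scalings, whereas Bst2 fell under all 5. Tap1 was lower under 2 of the 5 scalings at day 3 (-0.81 to 0.22) and 1 at day 7, where total counts gave a rise past the threshold.

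The inflammatory targets attributed to Irf5 and Irf8 held the largest falls of the lists. Il6, at 2443 ± 836 (SD, n = 3) with sham EVs, was at 34.2 ± 9.74 (SD, n = 3) in the 9 Gy day 3 group and 37.4 ± 8.85 (SD, n = 3) in the 9 Gy day 7 group, while Irf5 itself did not pass in either comparison. The log2 fold changes of Il6 were -6.10 and -6.02, on 4 to 13 raw counts in the 9 Gy day 3 group and 61 to 101 in the 9 Gy day 7 group. Il23a, at 198 ± 98.9 (SD, n = 3) with sham EVs, was 7.97 ± 1.69 (SD, n = 3) in the 9 Gy day 7 group, a log2 fold change of -4.61 on 13 to 21 raw counts. Il12b fell by 4.14 on the log2 scale in the 9 Gy day 7 group, on 4 to 13 raw counts. With 9 Gy day 3 EVs it stood at 1 count in all 3 samples, the lowest value deposited, so no size is given for that fall. Whether these low counts of Il6, Il23a and Il12b exceed background was not tested, so the sizes of the falls are uncertain. Nos2, an Irf1 target, was at -0.36 and -0.27 and did not pass in the housekeeping fit, but was higher past the threshold under 1 of the 5 scalings at each day. None of the activators, receptor partners, DNA-binding partners or targets passed the threshold with 2 Gy EVs.

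**Figure D5:**
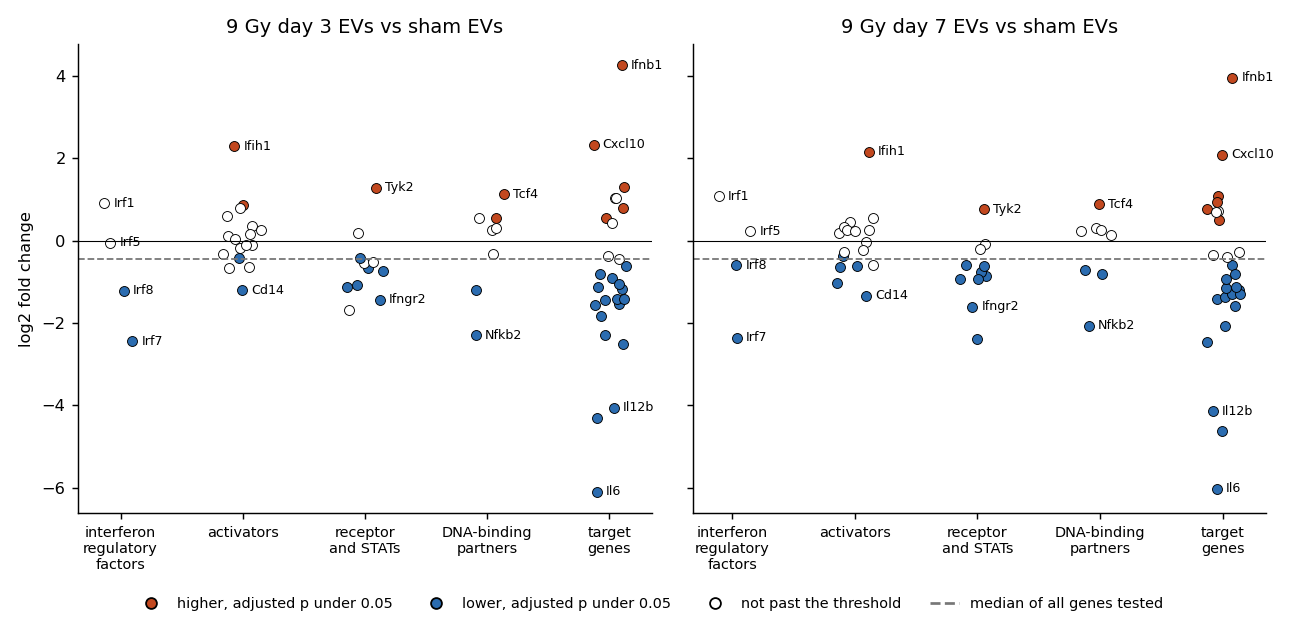
Log2 fold change against sham EVs of each tested gene of the interferon regulatory factors and of the 4 lists around them, with color for genes past the edgeR threshold (adjusted p under 0.05) and a dashed line at the median of all genes tested. Points are spread sideways only for legibility. Ifnb1, Cxcl10 and Ifih1 lie above 2, whereas Irf7 and Nfkb2 lie below -2 and Il6 near -6. The Il12b point for 9 Gy day 3 EVs rests on 1 raw count in each sample, the lowest value deposited, and gives no size.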

How the data were processed

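Expression of 561 genes was counted with the nanoString Mouse Immunology panel in 15 samples. The authors deposited whole-number counts per gene and sample and analysed them in nSolver v4.0 with settings not given in the sources used here. The lowest deposited count is 1, held by 741 values, and whether a floor was set or background subtracted before deposit is not given in the sources used here. Control probes were not analysed here. Groups follow the sample titles.

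Here, each sample was scaled by the geometric mean of its 14 housekeeping genes, the 269 genes averaging 20 counts or more were kept, and all 5 groups entered a joint quasi-likelihood fit in edgeR 4.0.16 (R 4.3.3, prior count 0.125), with Benjamini-Hochberg adjustment over the genes tested and a threshold of 0.05. The procedure was also run on simulated counts in which every gene had the same spread and the housekeeping genes did not change. That run does not test the scaling, and its outcome is not given here. Intervals are 95% intervals of the fit. Exact permutation tests were two-sided. The 9 Gy day 3 group had housekeeping means of 69.2 to 124 counts, against 448 to 872 in the other groups, so its low genes carry a larger counting error.

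The members and the 4 gene lists were chosen with earlier results of these data known. Named from each list were genes given beforehand by name and the 2 largest changes in each direction that passed with both 9 Gy groups, and for each tested member the 3 genes nearest to it. Genes outside this rule were not named by their values except Il1rap. Promoters are RefSeq windows of GRCm38.p6.

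Samples of the same replicate number were compared by the correlation of their deviations from the group means. It was over 0.1 for every pair between the 2 Gy groups (0.365 to 0.779) and between the 9 Gy groups (0.330 to 0.717) and not between other groups, so the numbers were taken as pairs for the comparisons of days. Some samples correlated more with another number: 9 Gy day 3 replicate 1 at 0.421 with day 7 replicate 2, against 0.330 with its own, and 2 Gy day 3 replicates 3 and 2 at 0.611 and 0.381 with day 7 replicates 2 and 3, against 0.534 and 0.365. Sham replicate 3 correlated with replicate 1 of both 2 Gy groups, at 0.731 for day 3 and 0.783 for day 7. Sham replicate 1 gave 0.158 and 0.254 with the same samples. The pairing comes from these correlations and the numbers in the titles, not from a stated design. Alternatives were 4 other scalings, DESeq2 1.42.0, both filters on low counts, counts under 20 set to 20, the replicate block, fits limited to the compared groups, both treatments of the samples with 2 days, and leaving out each sample. One item of the interferon signaling list is not reported here by name.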

Additional observations from a re-analysis of the deposited data

Results flagged for a closer look

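Irf7 differed between the samples of the 2 EV doses, with 9 Gy EVs lower than 2 Gy EVs by a log2 fold change of -2.30 (edgeR adjusted p 9.5e-08), and all 6 of the 9 Gy samples below all 6 of the 2 Gy samples. For Irf8 the same difference was -0.84 (edgeR adjusted p 0.00181), with 5 of 6 samples below. It passed under 2 of the 5 scalings (-0.84 to 0.27) and not under the median, TMM or total counts. In this contrast 67.7% of all genes tested differed.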

How the results depend on the processing

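Irf7 was lower and past the threshold in all alternatives run for 9 Gy day 3 EVs (21), 9 Gy day 7 EVs (21) and 9 Gy against 2 Gy EVs (27). Irf8 stayed past it in 16, 10 and 23 of these. Values below are log2 fold changes, and the cause of each shift was not tested. Under scaling to total counts, TMM, the median of the genes tested, stricter housekeeping genes (mean of 100 or more), and DESeq2's own size factors, Irf5 turned positive with 9 Gy day 3 EVs (0.99, 0.42, 0.43, 0.13 and 0.42) and in 9 Gy against 2 Gy EVs (1.15, 0.45, 0.44, 0.18 and 0.44), and in the latter it passed the threshold in all of these but the stricter housekeeping genes. Irf1 gained the same call under total counts, TMM, the median and DESeq2's own size factors. Total counts turned Irf8 to 0.48 with 9 Gy day 7 EVs and to 0.27 in 9 Gy against 2 Gy EVs. With 2 Gy day 3 EVs, Irf8 turned to 0.063 (median), 0.024 (TMM), 0.0035 (counts under 20 set to 20) and 0.063 (DESeq2), and Irf1 to -0.033 (total counts) and -0.0011 (stricter housekeeping genes). Between the 2 Gy days, Irf7 turned to -0.075 (median), -0.034 (TMM), -0.00095 (total counts), -0.075 (DESeq2) and -0.00022 (replicate block), and Irf5 to 0.017 (stricter housekeeping genes).

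With the 2 samples of conflicting day placed at day 7 or left out, 74 and 78 genes passed for 9 Gy day 3 EVs. Irf1 turned to -1.09 in both, and to -0.23 and -0.29 in 9 Gy against 2 Gy EVs. Between the 9 Gy days Irf7 turned to -0.57 and -0.42, and Irf8 to -0.17 with the samples placed at day 7. Requiring a mean of at least 100 counts left 164 genes to test, of which 109 passed for 9 Gy day 7 EVs. DESeq2 with housekeeping scaling called 1 gene with 2 Gy day 3 EVs, and no filter 1 gene with 2 Gy day 7 EVs. Counts under 20 set to 20 gave 99 genes between the 9 Gy days, Irf5 among them (0.68, edgeR adjusted p 0.024).

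The replicate block in a fit of only the groups compared gave 27 genes between the 2 Gy days, against 0 with the block in the fit of all groups, and changed no other call of a member between days except that of Irf1 given in the report. Leaving out 1 sample at a time, Irf1 ran from -0.31 to 0.75 with 2 Gy day 3 EVs and from -0.40 to 0.62 between the 9 Gy days. Irf5 ran from -0.17 to 0.15 with 9 Gy day 3 EVs, from -0.091 to 0.086 in 9 Gy against 2 Gy EVs (0.15 with replicate 3 of both 9 Gy groups left out together) and from -0.097 to 0.13 between the 2 Gy days. Irf7 ran from -0.22 to 0.43 between the 9 Gy days and from -0.055 to 0.047 between the 2 Gy days, and Irf8 from -0.13 to 0.048 with 2 Gy day 3 EVs.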
